A study of Saccharomyces cerevisiae with 14 samples.

Results

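Messenger RNA of 42 nuclear genes of budding yeast that help build the respiratory chain was followed in cells lacking FPT1 and in wild-type cells, after a 2 h move to ethanol and in glucose. The 42 genes were taken by name from a table of 6664 genes. They encode factors that insert metals and hemes into cytochrome c oxidase, assemble the oxidase, the bc1 complex and the ATP synthase, or switch on expression of single mitochondrial messages. All 42 had values, from 13.9 to 5240 FPKM (fragments mapped to a gene, scaled by gene length and by the mapped total of the library), and all passed the filter of at least 1 FPKM in at least 3 libraries that 6267 genes passed.

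The 14 poly(A) libraries fall into 4 groups: fpt1 deletion cells after 2 h in ethanol at 30 °C (n = 4), wild-type cells after the same move (n = 3), deletion cells growing in the glucose medium YEPD (n = 4), and wild-type cells in YEPD (n = 3). Wild type was BY4741, a MATa laboratory strain with the his3Δ1, leu2Δ0, met15Δ0 and ura3Δ0 markers, which the deletion strains share. In those the FPT1 reading frame is replaced by the KanMX drug-resistance cassette (fpt1::KanMX), under the strain name NKI5633 for replicates 1 to 3 and NKI5620 for replicate 4. Fpt1 is known as a chromatin protein of genes that RNA polymerase III transcribes. The comparisons ask how the move to ethanol, the loss of FPT1, or both alter the messages.

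Respiration needs complexes that mix subunits made in the cytosol with a few made inside mitochondria, and it needs heme and copper put into the oxidase. Assembly factors are mostly not part of the finished complexes. They hold, modify or insert subunits, while translational activators each act on 1 or a few mitochondrial messages, such as COX1, COX2, COX3, COB, ATP6 or OLI1. Budding yeast grows by fermentation in glucose and must respire to use ethanol, and several of these genes carry the name PET because their mutants are petite, that is, unable to respire. The table held no rows under the names used for those mitochondrial messages, so they were not analysed here.

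FPT1 itself reached at most 0.412 FPKM in the 8 deletion libraries, against 136, 150.1 and 158 FPKM in wild-type ethanol libraries and 52.4, 51.9 and 51.9 FPKM in wild-type glucose libraries, and was called lower in ethanol (adjusted p 1.59e-12) and in glucose (adjusted p 2.96e-11). All 14 libraries listed LEU2, URA3 and MET17 (the met15 locus) at 0. HIS3, of which the his3Δ1 allele lacks only a part, lay at 51 to 104 FPKM, which does not check that marker. Of the MATa genes, STE2 lay at 336 to 972 FPKM and BAR1 at 129 to 195 FPKM, and the MATalpha genes MF(ALPHA)1 and STE3 reached at most 5.49 and 12.4 FPKM. On the first principal component of all genes tested, which held 82.0% of the variance and separated the media, deletion ethanol libraries 2 and 4 lay nearest to glucose, at 35.3 and 31.8. The other 5 ethanol libraries lay between 45.6 and 58.1. The mean log2(FPKM + 1) of the 42 genes had the same 2 libraries lowest among ethanol libraries, at 7.09 and 7.04, against 7.25 and 7.17 in the other deletion libraries and 7.26, 7.35 and 7.21 in wild type. Their part in the results was not tested except by leaving them out.

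Nearly the whole set was higher in ethanol. In the deletion 37 of 42 genes rose and 2 fell, and in wild type 37 rose and 3 fell (limma on log2(FPKM + 1), Benjamini-Hochberg adjusted over the 6267 genes tested, threshold 0.05). Of all genes tested, 46.9% rose and 27.7% fell in the deletion, and 50.5% rose and 24.8% fell in wild type. On the log2 scale the median change in the deletion was 1.05 over the 42 genes and 0.19 over all genes tested, and in wild type it was 1.30 and 0.31. A rise of at least 1 on the log2 scale was seen for 22 of the 42 genes in the deletion and 28 in wild type, shares of 52.4% and 66.7%. Over all genes those shares were 17.4% in the deletion and 23.4% in wild type. FPKM values are shares of a library, so more of a message per cell and a larger share of the message pool cannot be told apart. The order of the 42 genes by response was nearly the same in both strains (Spearman's rho 0.983 over 42 genes, a description).

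**Figure D1:**
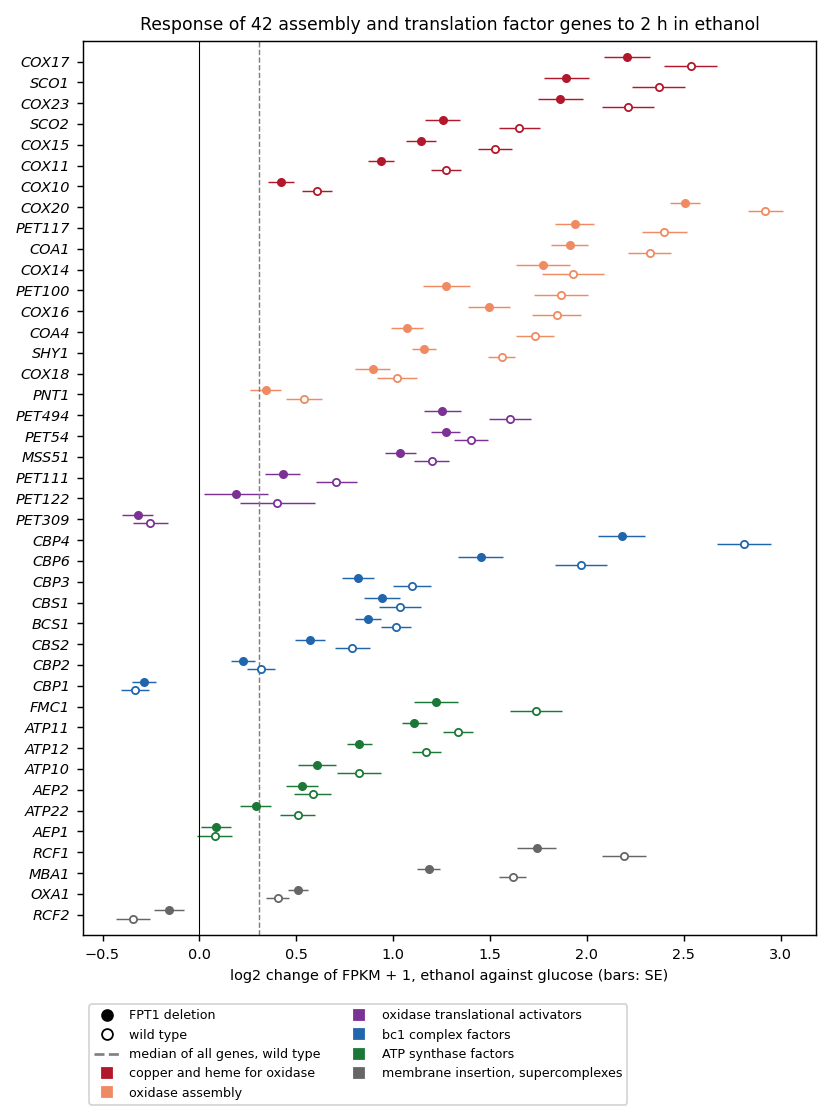
Change of each of the 42 genes in ethanol against glucose, as log2 of FPKM + 1 with SE bars, in the deletion (filled circles) and in wild type (open circles), ordered within role groups. Most genes lie to the right of the dashed line, the wild-type median of all genes (0.31), and COX20, CBP4 and COX17 lie farthest right.

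The scale between libraries moves the lower end of this range. With libraries set to a common median, the median of all genes became -0.03 in the deletion and -0.01 in wild type. Of the 42 genes 34 then rose and 3 fell in the deletion, and 35 rose and 4 fell in wild type. With quantile normalization 34 rose and 3 fell in the deletion, and 33 rose and 4 fell in wild type. Among all genes called, the share that rose in the deletion was 62.9% as deposited, 48.7% with a common median and 45.8% with quantile normalization. In wild type those shares were 67.0%, 49.8% and 46.8%. Genes not called are left out of these shares, so they do not compare directly with the counts of the 42 genes. As deposited, 2939 of the 6267 genes tested rose in the deletion and 3163 in wild type. With a common median those counts were 2295 and 2343, and with quantile normalization 2171 and 2206.

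Puf3 is an RNA-binding protein of yeast known to bind messages of mitochondrial proteins at the letters UGUA followed by any base and AUA, and to promote their decay in glucose. The letters TGTANATA were searched on the coding strand of the 200 bases after each stop codon (RefSeq S288C assembly R64, the same assembly as the submitters' sacCer3). They occurred in 36 of the 42 genes, or 85.7%, against 843 of 5985 coding genes, or 14.1%. All 7 copper and heme factors and all 10 other oxidase assembly factors had them, as did 4 of 6 activators, 7 of 8 bc1 factors, 5 of 7 ATP synthase factors and 3 of 4 insertion and supercomplex genes. The 6 genes with none in this window were PET54, PET122, CBS1, ATP10, ATP22 and RCF2. Matches are shown here for genes with large rises, for COA4 and SHY1, which recur in the comparison of strains, and for PET309, CBP1 and AEP1, which did not rise, with 8 bases on each side and the match in capitals, as DNA in the sense of the message.
COX20, chrIV:926223-926246, minus strand: ttttcctaTGTATATAtgcaacat
CBP4, chrVII:845782-845805, minus strand: ttgtacacTGTAAATAggtttaaa
COX17 nearer the stop, chrXII:131158-131181, minus strand: ccatttctTGTATATAtaagaata
COX17 farther from the stop, chrXII:131113-131136, minus strand: atactaccTGTAAATAtgtgcgat
PET117, chrV:272131-272154, plus strand: ctcttgttTGTATATAtgtaagaa
COA1, chrIX:46910-46933, minus strand: tatttgtcTGTAAATAtcctttat
RCF1, chrXIII:216925-216948, plus strand: cgatttgcTGTAAATAaattatga
CBP6, chrII:480397-480420, minus strand: tctaagctTGTAAATAcatattta
COA4, chrXII:573424-573447, minus strand: gtataactTGTATATAatagacag
SHY1, chrVII:718656-718679, plus strand: tttaaactTGTACATAactaacac
PET309, chrXII:267747-267770, minus strand: aaaaatcaTGTAAATAattaacaa
CBP1, chrX:40021-40044, plus strand: caaatttcTGTAAATAtatactaa
AEP1, chrXIII:399529-399552, plus strand: ataaacaaTGTAAATAagaatacg

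The variable letter was A in 29 of the 44 matches of the set, or 65.9%, T in 10 and C in 5, with no G. Over the 922 matches of all coding genes A took 28.2% and T 49.5%. The 36 genes with the letters had a median response of 1.13 in the deletion and 1.54 in wild type, and the 6 without had 0.45 and 0.67. Coding genes outside the set gave 0.47 and 0.61 with the letters (796 genes) and 0.16 and 0.27 without (4892 genes). Within the 42 genes the wild-type ranges overlapped, at -0.33 to 2.92 with the letters and -0.34 to 1.4 without. PET309 and CBP1, which fell, hold the same TGTAAATA letters as CBP4 and COA1, which rose. PUF3 itself, looked up after the values were seen, rose by 0.32 ± 0.10 in the deletion (adjusted p 0.00773) and 0.32 ± 0.11 in wild type (adjusted p 0.0179). The median changes of all genes tested were 0.19 in the deletion and 0.31 in wild type, so the wild-type change of PUF3 was near that of the typical gene. A match is a run of letters and not a measured site.

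Subunits of the same complexes, listed for comparison, carried the other motif searched. Hap2/3/4/5 is the activator known to switch on respiratory genes from CCAAT boxes. CCAATNA, or TNATTGG on the opposite strand, was searched in the 300 bases from 250 before to 50 after the start of each reading frame. It lay in 4 of the 42 genes, or 9.52%, against 956 of 5985 coding genes, or 16.0%, and in 23 of 31 nuclear subunit genes, or 74.2%. The letters after the stop codon were in 5 of those 31 subunit genes, or 16.1%. In wild type those 5 had a median response of 1.77 and the other 26 subunit genes had 2.34. The subunit genes with these letters thus rose less, the reverse of the order within the 42 genes, and the same held in the deletion. The 4 genes of the set with CCAATNA were COX20, COX17 (overlapping its start codon), ATP22 and MBA1. COX20, with the largest rise and both motifs, has this window on chrIV:926861-927160, minus strand, with the CCAATGA match, 169 bases before the start codon, in capitals.
COX20 promoter window: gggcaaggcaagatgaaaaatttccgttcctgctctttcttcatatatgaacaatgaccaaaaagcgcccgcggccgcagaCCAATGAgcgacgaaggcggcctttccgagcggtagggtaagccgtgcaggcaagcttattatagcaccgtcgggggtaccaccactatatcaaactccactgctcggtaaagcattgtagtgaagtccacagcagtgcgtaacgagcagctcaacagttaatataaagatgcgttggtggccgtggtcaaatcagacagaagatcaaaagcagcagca
The other window shown lacks the letters. PET122 and OXA1 are divergent neighbours that share the 214 bases between their reading frames, chrV:474806-475019, plus strand towards OXA1, which hold no CCAATNA on either strand. PET122 was not called in ethanol and OXA1 had a small rise. Of the 38 members without the CCAATNA letters, 33 rose in each strain, with medians of 0.99 in the deletion and 1.24 in wild type. The highest of these in wild type was 2.81 (CBP4). The 4 with the letters all rose, by 0.29 to 2.51 in the deletion and 0.51 to 2.92 in wild type, ATP22 least. Subunit genes had medians of 2.10 and 2.31 with the letters, and 1.86 and 2.22 without.
Between PET122 and OXA1: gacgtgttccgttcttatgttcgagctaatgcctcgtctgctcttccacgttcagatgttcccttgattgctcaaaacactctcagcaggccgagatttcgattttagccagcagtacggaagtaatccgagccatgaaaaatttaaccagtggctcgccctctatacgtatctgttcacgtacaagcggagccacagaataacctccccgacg

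**Figure D2:**
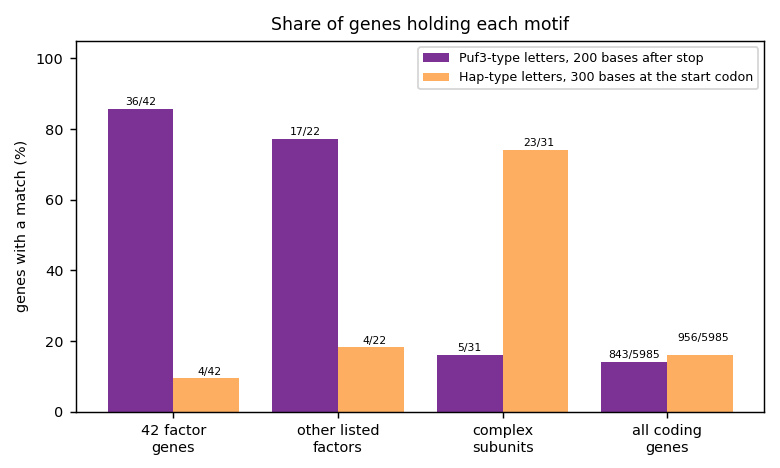
Share of genes (percent) with the Puf3-type letters in the 200 bases after the stop codon and with the Hap-type letters in the 300 bases around the start codon, in the 42 genes, 22 other listed factors, 31 nuclear subunits and all 5985 coding genes. The factor genes stand high for the first motif and the subunit genes for the second.

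Copper and heme factors of the oxidase rose as a group, 7 of 7 in each strain, with a median change of 1.26 in the deletion and 1.65 in wild type. COX17 (YLL009C), the copper chaperone of the intermembrane space and the most abundant message of the 42 in every group, had 4717, 5051, 3977 and 4760 FPKM in deletion ethanol libraries, against 922, 872, 1112 and 1106 FPKM in deletion glucose libraries. In wild type it had 5020, 5240 and 4847 FPKM in ethanol, against 1055, 848 and 728 FPKM in glucose. No ethanol library overlapped a glucose library, and the change was 2.21 ± 0.12 in the deletion and 2.54 ± 0.14 in wild type (log2 ± SE; adjusted p 1.57e-09 and 1.39e-09). SCO1, which passes copper on to the Cox2 subunit, rose by 1.89 ± 0.12 in the deletion and 2.37 ± 0.14 in wild type, and its paralog SCO2 by 1.26 ± 0.09 and 1.65 ± 0.10. COX23, a small cysteine-rich relative of Cox17, rose by 1.86 ± 0.11 and 2.21 ± 0.13, and COX11, which delivers copper to Cox1, by 0.94 ± 0.07 and 1.27 ± 0.08. In the heme A pathway COX15, heme A synthase, rose by 1.14 ± 0.08 in the deletion and 1.52 ± 0.09 in wild type, while COX10 (YPL172C), the farnesyl transferase that precedes it, had the lowest rise of the group, 0.42 ± 0.07 and 0.61 ± 0.08 (adjusted p 6.22e-05 and 6.88e-06). COX10 stood at 69.3, 58.5, 64.4 and 56.6 FPKM in deletion ethanol libraries, against 48.3, 44.8, 46.1 and 45.1 FPKM in deletion glucose libraries, and the sets did not overlap.

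The 10 further assembly factors of the oxidase all rose in both strains, with a median of 1.38 in the deletion and 1.85 in wild type. COX20 (YDR231C), the chaperone of newly made Cox2, had the largest rise of the 42 genes in both strains. It stood at 255, 213, 217 and 199 FPKM in deletion ethanol libraries, against 37.6, 35.8, 42.5 and 36.2 FPKM in deletion glucose libraries. Wild-type libraries gave 249, 269.9 and 234 FPKM in ethanol, against 32.0, 31.6 and 32.9 FPKM in glucose. The groups were far apart, with changes of 2.50 ± 0.08 in the deletion (adjusted p 1.41e-11) and 2.92 ± 0.09 in wild type (adjusted p 1.82e-11), that is 5.68-fold and 7.57-fold on the FPKM + 1 scale. PET117 (YER058W), an assembly factor that works with heme A synthase, had 299, 269, 265 and 260 FPKM in deletion ethanol libraries, against 65.7, 68.9, 66.8 and 82.3 FPKM in deletion glucose libraries. It rose by 1.94 ± 0.10 in the deletion and 2.40 ± 0.12 in wild type (adjusted p 1.16e-09 and 5.9e-10). COA1, COX14 and COX16, which act with newly made Cox1, rose by 2.32, 1.93 and 1.84 in wild type. COX14 was the second most abundant message of the 42 in every group, with means of 1366 ± 185 FPKM in deletion ethanol, 1488 ± 237 FPKM in wild-type ethanol, 401 ± 79.4 FPKM in deletion glucose and 387 ± 27.3 FPKM in wild-type glucose. PET100, COA4 (YLR218C), SHY1 (YGR112W, the yeast relative of human SURF1) and COX18, an exporter of the Cox2 tail, rose by 1.02 to 1.86 in wild type. PNT1 (YOR266W), which also takes part in Cox2 export, had the lowest rise, 0.34 ± 0.08 in the deletion and 0.54 ± 0.09 in wild type (adjusted p 0.00139 and 9.61e-05). Its call was lost in the deletion with a common median (0.13) or quantile normalization (0.13), and in wild type with quantile normalization (0.20).

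Translational activators of the 3 mitochondrial oxidase messages were mixed: 4 of 6 rose and 1 fell in each strain, with a median of 0.73 in the deletion and 0.95 in wild type. PET494 (YNR045W) and PET54, both needed for COX3 translation, rose by 1.25 ± 0.09 and 1.27 ± 0.08 in the deletion and by 1.60 ± 0.11 and 1.40 ± 0.09 in wild type. For PET494 the adjusted p was 3.29e-08 in the deletion and 1.02e-08 in wild type. MSS51, which couples COX1 translation to assembly, rose by 1.04 ± 0.08 and 1.20 ± 0.09, and PET111, the COX2 activator, by 0.43 ± 0.09 and 0.71 ± 0.11. PET122, the remaining COX3 activator, was not called, with 0.19 ± 0.17 in the deletion (adjusted p 0.315) and 0.40 ± 0.19 in wild type (adjusted p 0.0721). It was called in wild type when wild-type ethanol library 1 or deletion glucose library 4 was left out (adjusted p 0.044 and 0.0234). PET309 (YLR067C), needed for COX1 message stability and translation, had 27.0, 23.8, 28.3 and 25.1 FPKM in deletion ethanol libraries, against 30.7, 34.8, 33.3 and 32.1 FPKM in deletion glucose libraries, and 23.6, 24.7 and 27.9 FPKM in wild-type ethanol libraries, against 32.8, 27.6 and 31.0 FPKM in wild-type glucose libraries. The deletion sets did not overlap and the wild-type sets overlapped between 27.6 and 27.9 FPKM. PET309 fell by 0.32 ± 0.08 in the deletion (adjusted p 0.00217) and by 0.25 ± 0.09 in wild type (adjusted p 0.0213). The wild-type call was lost without any 1 of 4 wild-type libraries, glucose 1 or 3 or ethanol 1 or 2 (adjusted p 0.09, 0.0599, 0.082 and 0.0591).

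Factors of the bc1 complex spanned nearly the whole range of the set, with 7 of 8 higher and 1 lower in each strain and medians of 0.84 in the deletion and 1.02 in wild type. CBP4 (YGR174C), an assembly factor of cytochrome b, had 420.3, 336, 364 and 312 FPKM in deletion ethanol libraries, against 69.1, 73.7, 86.2 and 83.5 FPKM in deletion glucose libraries. Wild-type libraries had 488, 578 and 387 FPKM in ethanol, against 72.2, 63.6 and 66.1 FPKM in glucose. All ethanol libraries stood several-fold above all glucose libraries, and the change was 2.18 ± 0.12 in the deletion and 2.81 ± 0.14 in wild type (adjusted p 2.02e-09 and 6.79e-10). CBP6 and CBP3, partners that bind newly made cytochrome b at the ribosome, both rose, CBP6 by 1.45 ± 0.12 in the deletion and 1.97 ± 0.13 in wild type and CBP3 by 0.82 ± 0.08 and 1.10 ± 0.10. CBS1 and CBS2, the activators of COB translation, rose by 1.03 ± 0.11 and 0.79 ± 0.09 in wild type, and BCS1, which moves the Rieske protein across the inner membrane, by 1.01 ± 0.08. CBP2, which helps splice a COB intron, rose by 0.23 ± 0.06 and 0.32 ± 0.07, a rise that was 0.01 in the deletion and -0.00 in wild type with a common median and was then not called. CBP1 (YJL209W), which protects the COB message, went the other way. It had 39.3, 38.4, 41.0 and 38.0 FPKM in deletion ethanol libraries, against 45.7, 51.2, 48.6 and 46.7 FPKM in deletion glucose libraries, and 34.0, 33.6 and 39.0 FPKM in wild-type ethanol libraries, against 45.5, 47.0 and 42.2 FPKM in wild-type glucose libraries. Ethanol and glucose sets did not overlap in either strain, and CBP1 fell by 0.29 ± 0.06 in the deletion and by 0.33 ± 0.07 in wild type (adjusted p 0.000921 and 0.000854).

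**Figure D3:**
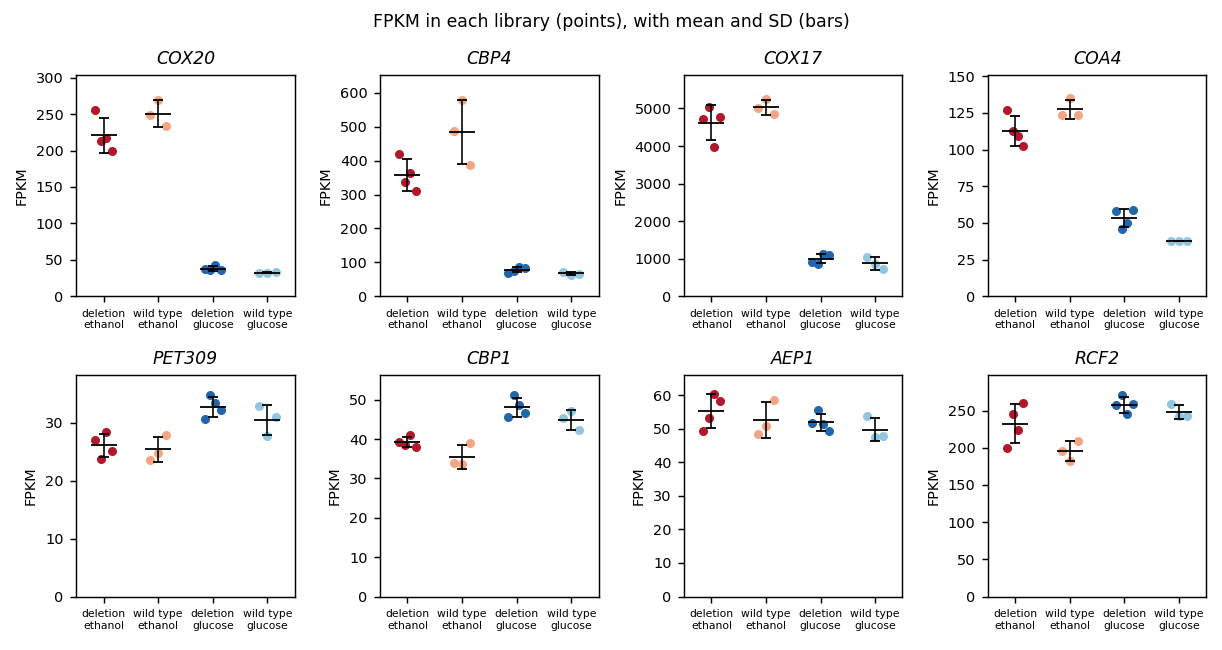
FPKM in each library (points) with the mean and SD (bars) for 8 of the 42 genes, in deletion ethanol, wild-type ethanol, deletion glucose and wild-type glucose libraries. COX20, CBP4 and COX17 are several-fold higher in ethanol in both strains, COA4 is 2.10-fold higher in the deletion and 3.32-fold higher in wild type, PET309 and CBP1 are lower, and AEP1 overlaps between media.

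Of the ATP synthase factors 6 of 7 rose in each strain, with medians of 0.61 in the deletion and 0.82 in wild type. FMC1 (YIL098C), a factor for the catalytic F1 part, had 251, 207, 224 and 184 FPKM in deletion ethanol libraries, against 86.2, 102, 84.5 and 95.3 FPKM in deletion glucose libraries, and rose by 1.22 ± 0.11 in the deletion and 1.74 ± 0.13 in wild type (adjusted p 3.06e-07 and 3.16e-08). ATP11 and ATP12, chaperones of the beta and alpha subunits, rose by 1.33 ± 0.08 and 1.17 ± 0.08 in wild type, and ATP10, which acts on Atp6, by 0.82 ± 0.11. AEP2, needed for OLI1 message expression, rose by 0.53 ± 0.08 and 0.58 ± 0.10. ATP22, the ATP6 activator, rose by 0.29 ± 0.08 and 0.51 ± 0.09, a call lost in the deletion with a common median (0.08) or quantile normalization (0.08), and in wild type with quantile normalization (0.17). AEP1 (YMR064W), the other OLI1 factor, had 49.3, 53.3, 60.5 and 58.3 FPKM in deletion ethanol libraries, against 51.7, 55.5, 51.3 and 49.4 FPKM in deletion glucose libraries, and 48.6, 50.7 and 58.7 FPKM in wild-type ethanol libraries, against 53.8, 47.5 and 48.0 FPKM in wild-type glucose libraries. Media overlapped in both strains, and AEP1 was not called, with 0.09 ± 0.08 (adjusted p 0.335) and 0.08 ± 0.09 (adjusted p 0.451). With a common median the wild-type estimate was -0.24 and called lower (adjusted p 0.0187).

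Of the membrane insertion and supercomplex genes, MBA1 (YBR185C), a ribosome receptor of the inner membrane, rose by 1.18 ± 0.06 in the deletion and 1.62 ± 0.07 in wild type. OXA1, the insertase for mitochondrially made proteins, rose by 0.51 ± 0.05 and 0.40 ± 0.06, and its wild-type call was lost with a common median (0.08) or quantile normalization (0.06). The 2 supercomplex factors moved in opposite directions in wild type. RCF1 (YML030W) had 570.4, 428, 509.5 and 390.1 FPKM in deletion ethanol libraries, against 135, 136, 140.4 and 148 FPKM in deletion glucose libraries, and rose by 1.74 ± 0.10 in the deletion and 2.19 ± 0.12 in wild type (adjusted p 3.08e-09 and 1.2e-09). RCF2 (YNR018W) had 196, 182 and 209 FPKM in wild-type ethanol libraries, against 258, 243 and 242 FPKM in wild-type glucose libraries, sets that did not overlap, and fell by 0.34 ± 0.09 (adjusted p 0.00261). In the deletion RCF2 had 199.7, 245, 224 and 259.6 FPKM in ethanol, against 257, 271, 245 and 258 FPKM in glucose. Ethanol libraries 2 and 4 reached the glucose range there, and the change of -0.16 ± 0.08 was not called (adjusted p 0.0751). Without those 2 libraries, a setting chosen after seeing the data, it was -0.28 and called (adjusted p 0.00388). It was called lower also without ethanol library 4 alone (-0.21, adjusted p 0.0185) or without both NKI5620 libraries (-0.21, adjusted p 0.0338). The same held with a common median (-0.37) or quantile normalization (-0.49).

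All 31 listed nuclear subunits rose in both strains, with medians of 1.95 in the deletion and 2.31 in wild type and a lowest wild-type rise of 1.48. The medians of the 42 factor genes, 1.05 and 1.30, were lower in both strains. By complex, the wild-type subunit medians were 2.78 for bc1, 2.28 for the oxidase and 2.07 for the ATP synthase. The matching factors had medians of 1.02 for bc1 and 0.82 for the ATP synthase, activators included. The 3 oxidase lists had 1.65 (copper and heme), 1.85 (other assembly) and 0.95 (translational activators). Of 22 other listed factors for assembly or mitochondrial message expression, 21 rose in the deletion (median 1.22) and 22 in wild type (median 1.40), and 17 held the letters after the stop codon. The 4 HAP genes all rose in both strains. HAP4, the regulated activation subunit, had 293, 233, 258 and 217 FPKM in deletion ethanol libraries, against 140.4, 148, 154 and 142 FPKM in deletion glucose libraries, and rose by 0.76 ± 0.08 in the deletion and 1.34 ± 0.09 in wild type (adjusted p 1.16e-06 and 1.54e-08).

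The response varied with gene length, although the largest rises, of COX20 and CBP4, were not in the shortest genes. The 42 reading frames, all single-exon and on 12 chromosomes, run from 210 bases (COX17) to 2898 bases (PET309). The wild-type response had a median of 1.95 in the 10 genes under 500 bases (1.73 to 2.54) and 1.34 in the 15 genes of 500 to under 1000 bases (-0.34 to 2.92). It was 1.06 in the 10 genes of 1000 to under 1500 bases (0.40 to 1.60) and 0.32 in the 7 genes of 1500 bases or more (-0.33 to 0.71). Spearman's rho between coding length and response was -0.728 in the deletion and -0.737 in wild type over the 42 genes, and -0.254 over 5733 annotated genes in wild type, as descriptions. The 42 points share the same libraries, and FPKM is itself scaled by length. Between the wild-type glucose level and response rho was lower (0.351 in the deletion and 0.309 in wild type).

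**Figure D4:**
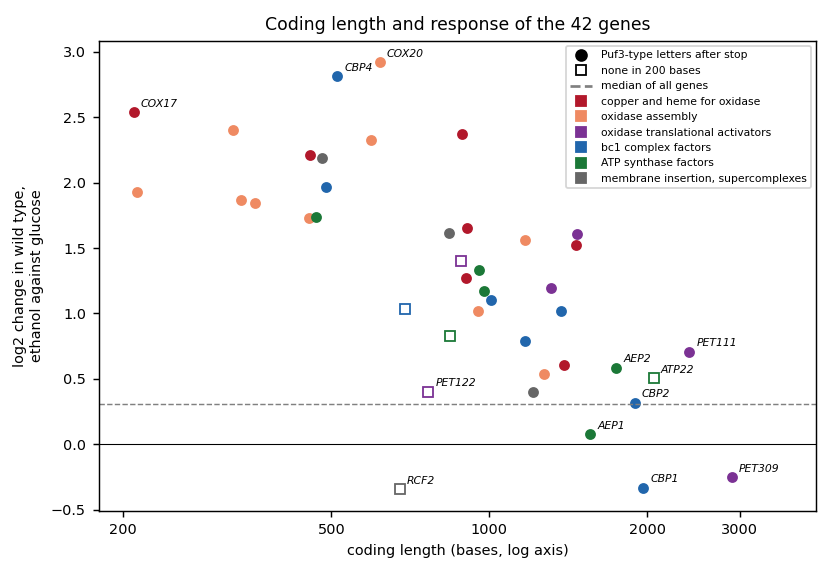
Coding length of each of the 42 genes (bases, log axis) against its wild-type change in ethanol against glucose (log2 of FPKM + 1), coloured by role, with filled circles for genes with the Puf3-type letters after the stop codon and open squares for those without. Genes under 500 bases all lie above 1.73, and the 7 longest lie between -0.33 and 0.71.

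In glucose the deletion left no gene of the set past the threshold. The count was 0 of 42 (limma, adjusted over 6267 genes), where 0.0319% of all genes passed, and 8 of 42, or 19.0%, had an unadjusted p under 0.05, against 11.5% of all genes. Estimates were above 0 for 41 of 42 genes, against 73.2% of all genes, with medians of 0.13 and 0.08. With a common median 29 of 42 were above 0, and with quantile normalization 26. The medians of the 42 genes were then 0.04 and 0.03, against -0.01 over all genes with each scaling. COA4, an oxidase factor of the intermembrane space, had 58.0, 46.1, 49.7 and 59.1 FPKM in deletion glucose libraries, against 37.7, 37.6 and 37.7 FPKM in wild-type glucose libraries. The deletion libraries all stood above the wild-type libraries, which were nearly equal, but the change of 0.48 ± 0.09 did not pass (adjusted p 0.0819). It passed only when deletion ethanol library 1 was left out (adjusted p 0.0476), among the 14 libraries left out in turn. SHY1 had 26.2, 25.7, 25.2 and 23.3 FPKM in deletion glucose libraries, against 22.8, 22.3 and 20.7 FPKM in wild-type glucose libraries, a change of 0.19 ± 0.07 (adjusted p 0.369). MBA1 gave 0.18 ± 0.07 (adjusted p 0.369) and overlapped between the strains. Complete separation with the deletion above was seen for 9 of 42 genes, or 21.4%, against 15.6% of all genes: COX10, COX15, SCO2, COX20, SHY1, COA4, CBP2, ATP12 and RCF1. HAP4 gave 140.4, 148, 154 and 142 FPKM in deletion glucose libraries, against 104, 108 and 98.8 FPKM in wild-type glucose libraries, also without passing (0.49 ± 0.09, adjusted p 0.0735).

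After 2 h in ethanol most estimates lay on the other side, again with 0 of 42 genes past the threshold (limma; 0.0319% of all genes). An unadjusted p under 0.05 was found for 16 genes, or 38.1%, against 24.1% of all genes. Of these 15 were lower in the deletion, or 35.7%, where 13.0% of all genes were lower at that level. Estimates were below 0 for 34 of 42 genes, against 57.5% of all genes, with medians of -0.14 and -0.04. CBP4 had 420.3, 336, 364 and 312 FPKM in deletion ethanol libraries, against 488, 578 and 387 FPKM in wild-type ethanol libraries. The sets overlapped, and the change was -0.42 ± 0.13 (adjusted p 0.112). MBA1 had 179, 161, 174 and 166 FPKM in deletion ethanol libraries, against 208, 207 and 193 FPKM in wild-type ethanol libraries. All deletion libraries were below all wild-type libraries, with a change of -0.25 ± 0.07 (adjusted p 0.107). SHY1 had 58.7, 58.0, 57.6 and 54.7 FPKM in deletion ethanol libraries, against 68.8, 69.7 and 61.2 FPKM in wild-type ethanol libraries, also without overlap (-0.21 ± 0.07, adjusted p 0.112). PET100 had 696, 709, 696 and 549.8 FPKM in deletion ethanol libraries, against 896, 955 and 719.8 FPKM in wild-type ethanol libraries, again with every deletion library lower, so that 3 of 42 genes separated downwards, or 7.14%, against 4.12% of all genes. OXA1 alone separated upwards, or 2.38% against 3.24%, with 101, 98.2, 98.3 and 102 FPKM in deletion ethanol libraries, against 96.7, 95.0 and 97.5 FPKM in wild-type ethanol libraries.

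**Figure D5:**
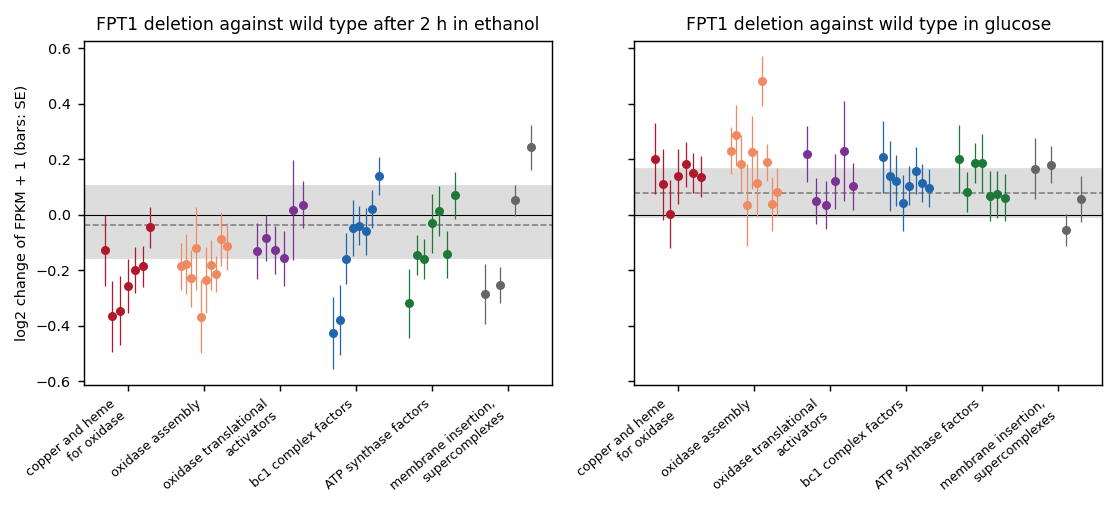
Change of each of the 42 genes in the deletion against wild type (log2 of FPKM + 1, bars SE) after 2 h in ethanol and in glucose, grouped by role. The dashed line is the median of all genes and the grey band spans their lower to upper quartile. No gene passed the threshold, and most points lie below 0 in ethanol and above 0 in glucose.

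This count turned on single libraries. Without wild-type ethanol library 3 there were 11 genes called in ethanol, 10 of them lower in the deletion and RCF2 higher, and without deletion ethanol library 1 there were 10, of which 9 were lower and RCF2 was higher. Those settings called 964 and 912 of the 6267 genes tested, with 421 and 424 of them lower in the deletion and 543 and 488 higher. Called in both were 6 genes: CBP4, CBP6, MBA1, RCF2, SCO1 and SCO2. Without deletion ethanol libraries 2 and 4, the pair nearest to glucose, 0 genes of the set were called and 17 of 42 estimates were above 0. The median was then -0.05, against -0.0006 over all genes.

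The ethanol response itself was not shown to differ between strains for any gene of the set, nor to be alike. The difference, deletion response minus wild-type response, gave 0 of 42 genes past the threshold (limma; 0% of all genes), and 19, or 45.2%, at an unadjusted p under 0.05, against 25.6% of all genes. Estimates were below 0 for 38 of 42 genes, against 68.1% of all genes, with medians of -0.28 and -0.12. The lowest p-values belonged to COA4 (-0.66 ± 0.13), MBA1 (-0.43 ± 0.09) and SHY1 (-0.40 ± 0.09), each with an adjusted p of 0.126. COA4 rose by 1.07 ± 0.08 in the deletion and 1.73 ± 0.10 in wild type, with means of 113 ± 10.4 FPKM in deletion ethanol libraries, against 128 ± 6.55 FPKM in wild-type ethanol libraries, and 53.2 ± 6.33 FPKM in deletion glucose libraries, against 37.7 ± 0.0617 FPKM in wild-type glucose libraries (SD, n = 4 and 3). Without wild-type ethanol library 3 the count was 10, and without deletion ethanol library 1 it was 13, all lower in the deletion, where those settings called 654 and 844 of the 6267 genes, 417 and 586 of them lower. Called in both were 8 genes called in both: CBP4, CBP6, COA4, COX15, COX20, MBA1, SCO2 and SHY1. Without deletion ethanol libraries 2 and 4 the count was 0 and the median difference -0.24.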

How the data were processed

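The deposited values are FPKM per gene in 1 table, made by the authors. The submitters' processing notes name STAR 2.7.1a and sacCer3. Per the labels' protocols, stranded poly(A) libraries were read as 65-base single reads. How reads became FPKM (tool, annotation, strandedness, filters) is not given in the sources used here. Depth is not given, and non-zero values down to 3.09e-25 FPKM gave no whole reads, so no count model, interval or floor was used. Column totals ran from 1649739 to 2027946 FPKM and library medians from 47.8 to 63.5 FPKM. Each column matched 1 sample by name.

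The 6267 of 6664 genes that reached 1 FPKM in 3 or more of the 14 libraries were tested as log2(FPKM + 1), which understates changes of low genes. A model with 1 mean per group over all libraries was fitted with limma 3.58.1 in R 4.3.3 (empirical Bayes with trend), checked on simulated data. P-values are two-sided and adjusted by Benjamini-Hochberg within each of 5 comparisons, with a threshold of 0.05. Replicates are described as biological without separate cultures being named, so the p-values cover only the variation among these samples, part of which may be technical. Correlations gave no clear sign that replicate numbers pair samples across groups, a check that cannot exclude pairing.

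The 42 genes, the comparison lists and the tests were chosen with earlier results of these data known. Change, SE and adjusted p were given for the 4 largest and 4 lowest responses in each strain, the 3 lowest p-values in each comparison of strains and in the difference, the extremes of each role group, and HAP4, and for FPT1 its values and adjusted p. Other members are given by value or by change, many with SE. PET122 and PUF3, outside these rules, are also given with adjusted p. Positions and sequences came from RefSeq S288C R64, matched by systematic name (5986 genes, 5985 with both windows). A search of protein sequences for cysteine motifs was not made. The 7 mitochondrial genes listed had no rows in the table under the names used and were not analysed. Alternatives were pseudocounts of 0.1 and 5, no filter, a stricter filter, 2 scalings, no trend and a replicate block. Libraries were also left out, each in turn or both NKI5620 libraries together. Leaving out deletion ethanol libraries 2 and 4 together was chosen after seeing the data.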

Additional observations from a re-analysis of the deposited data

Results flagged for a closer look

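Of 84 groups of 4 deletion libraries examined, 2 for each of the 42 genes, 6 held a library whose gap to the nearest of the others exceeded 0.829 of the group's range, and chance gives about 1 in 20 groups. PET100 stood at 550 FPKM in deletion ethanol library 4, against 696 to 709 FPKM in the other 3. COX14 stood at 520 FPKM in deletion glucose library 4, against 354 to 370 FPKM. PET122 stood at 13.9 FPKM in the same library, against 22.1 to 23.3 FPKM. COX23 stood at 41.7 FPKM in deletion glucose library 2, against 34.6 to 35.5 FPKM, and ATP11 at 138 FPKM in that library, against 147 to 148 FPKM. BCS1 stood at 62.2 FPKM in deletion glucose library 3, against 53.6 to 54.9 FPKM. Library 4 of either medium is the NKI5620 strain and holds 3 of the 6 values. A link of these values to the strain was not tested, and the same count was not made over all genes. The groups of 3 wild-type libraries were not examined in this way.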

How the results depend on the processing

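The counts of the 42 genes called stayed within 1.5 times the main count, and at 0 where it was 0, in 115 of 120 recalculations. The exceptions all left out 1 library: over the 14 libraries left out in turn the counts ran from 39 to 40 for the deletion response, 39 to 41 for the wild-type response, 0 to 1 for the deletion in glucose, 0 to 11 for the deletion in ethanol and 0 to 13 for the difference of responses, and the cause was not tested. With replicate number as a block the counts were unchanged, at 39 for the deletion response, 40 for the wild-type response and 0 for the other 3. The numbers gave no clear sign of pairing, which groups this small cannot exclude. Correlations of deviations ran from -0.423 to 0.325 over 19 same-numbered pairs, 4 of them above 0.1. Of 14 libraries, 4 correlated best with their own number. Of 720 recalculated values of single genes, 693 kept direction and side of the threshold, 5 lost the call, 17 gained it and 5 changed sign. All 5 were AEP1: in the deletion -0.13 with a common median and -0.12 with quantile normalization, and in wild type -0.24 with each of those scalings and, over the libraries left out in turn, -0.0007421 (without wild-type ethanol library 3) to 0.1341. Depth is not given, so the counting error of the lower genes, such as PET122 and ATP10, is unknown, and genes with an adjusted p near the threshold turn on single libraries of groups of 3 or 4.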
